A study of Mus musculus with 12 samples.

Results

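The genes described here are 34 genes of glucose use: glycolysis, glycogen storage, the pentose phosphate pathway and the response to low oxygen. They were chosen as a named list of symbols, with earlier results of these data known. Their counts and medians beside those of all genes are therefore a description. All 34 were found among the 16805 genes of the neutrophil count table and the 16954 genes of the monocyte count table. All 34 also passed the filter on low counts in both tables. RNA-seq was run on cells taken from the spleens of tumour-bearing wild-type mice around cryo-thermal therapy (CTT), in which a tumour is frozen and then heated. Cells labelled neutrophils were pulled out with an antibody against Ly6G, from mice with no therapy (control, 3 libraries) and from mice 12 h after CTT (3 libraries). Cells labelled monocytes were pulled out with an antibody against the chemokine receptor CCR2, 5 days after CTT, from mice that received CTT alone (3 libraries) or CTT and anti-Ly6G (3 libraries). Anti-Ly6G is an antibody used to deplete neutrophils, and both monocyte groups had received CTT. Tumour type, strain, age and the number of mice behind each library were not given in the sources used here. The libraries are labelled as biological replicates, and each p-value reflects no more than the spread among them.

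Glucose enters a cell through transporters and is phosphorylated by hexokinases, after which glycolysis splits it into pyruvate and yields ATP without oxygen. Pyruvate is either burnt in mitochondria or reduced to lactate, which leaves the cell through monocarboxylate transporters, and glucose phosphate can be diverted into the pentose phosphate pathway, which makes NADPH, or stored as glycogen. The transcription factor HIF-1 raises many of these genes when oxygen is low, and neutrophils and activated monocytes are known as strongly glycolytic cells in which NADPH also feeds the oxidative burst.

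Each library held 30942849 to 35956571 counted reads. Levels are given as CPM, the counts scaled to library size by the trimmed mean of M values (TMM), or, where genes are compared with each other, as the deposited FPKM, which divides by gene length. Genes were called at an adjusted p below 0.05 in edgeR's quasi-likelihood test, adjusted over all genes tested in that cell type. The selected cells carried transcripts of several cell types, and none of the 93 marker genes examined was listed at 0 in any library. The B cell markers (10 genes) summed to more than the neutrophil markers (14 genes) in control neutrophil replicates 2 and 3, at 7080 and 7903 CPM against 6158 and 4547 CPM, so the Ly6G-selected libraries were not neutrophils alone. Control neutrophil replicate 1 stood apart from the other 5 neutrophil libraries, with an erythroid marker sum of 16044 CPM (453 to 2723 CPM in the others) and a cell cycle sum of 6115 CPM (1123 to 1664 CPM). Neutrophil results are therefore given with and without it. In the monocyte libraries Ly6g itself stood at 16.1, 11.7 and 13.1 CPM with CTT alone and 62.7, 57.1 and 48.5 CPM with anti-Ly6G, so the RNA of the antibody's own target was higher in the libraries labelled anti-Ly6G. Ccr2 stood at 264, 190.5 and 194 CPM and 587, 439 and 512 CPM in the same order. In every CCR2-selected library the macrophage markers (12 genes) and the neutrophil markers each summed to more than the monocyte markers (10 genes). Macrophage sums were 7048 to 14890 CPM, neutrophil sums 4929 to 18710 CPM and monocyte sums 3320 to 5177 CPM. The CCR2-selected libraries were thus not monocytes alone. Below, monocytes and neutrophils mean the cells so labelled.

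In monocytes 5 days after CTT, 27 of the 34 genes rose with anti-Ly6G, 1 fell and 6 did not pass the test. Among all 13294 genes tested, 10.2% rose (1354) and 5.12% fell (681), a split that was 1069 and 1030 with upper quartile scaling. The median log2 fold change of the 34 genes was 0.50, from −0.31 to 1.40, beside 0.00 for all tested genes. Together the 34 genes made up 0.519 to 0.561% of the counts with CTT alone and 0.763 to 0.853% with anti-Ly6G. In 29 of them every anti-Ly6G library lay above every CTT library and in 1 below, against 20.6% and 15.4% of all genes. The increases were mostly below 2-fold: 12 of the 27 were under 1.5-fold, 12 lay between 1.5-fold and 2-fold, and 3 (Egln3, G6pdx and Slc16a3) were above 2-fold. All of these are bulk measurements of selected cells, so a change in the share of a cell type and a change of RNA per cell cannot be told apart.

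Markers of other cells moved in the same libraries. The summed neutrophil markers were 4929 to 6959 CPM with CTT alone and 13739 to 18710 CPM with anti-Ly6G, and 12 of the 14 rose (median log2 fold change 1.61). The summed macrophage markers were 8945 to 14890 CPM and 7048 to 7668 CPM, and 9 of the 12 fell. Of the 10 monocyte markers 7 rose and 2 fell, with sums of 3320 to 5051 CPM and 4294 to 5177 CPM. Of the 16 cell cycle markers 9 rose, and their sums were 1683 to 1924 CPM and 2124 to 2419.5 CPM. B cell markers fell in 2 of 10 genes, erythroid markers in 3 of 14, and T and NK cell markers rose in 3 of 9 and fell in 1. All 10 B cell and all 14 erythroid estimates were below 0 (median log2 fold changes −0.48 and −0.53). Of the 9 T and NK cell estimates 7 were above 0 (median 0.42). The part of these shifts in the changes of the 34 genes was not tested. Anti-Ly6G replicate 1 had the highest value of its group in 22 of the 27 genes that rose, and replicate 3 the lowest in 19 of them. Replicate 1 had the highest neutrophil (18710 CPM), monocyte (5177 CPM) and cell cycle (2419.5 CPM) marker sums of that group. Its B cell sum was the lowest there (2956 CPM). Replicate 3 had the lowest neutrophil (13739 CPM), monocyte (4294 CPM), cell cycle (2124 CPM) and macrophage (7048 CPM) sums. Its B cell sum was the highest of that group (4094 CPM). CTT replicate 1 was the highest CTT library in 21 of the 27. Among the CTT libraries it had the highest macrophage (14890 CPM), neutrophil (6959 CPM) and monocyte (5051 CPM) marker sums. Its B cell marker sum was the lowest of the CTT libraries (3859 CPM). The shares of all genes that were highest or lowest in these same libraries were not counted. Without CTT replicate 1 the count was again 27 higher and 1 lower, with a median of 0.55. A fit of all 4 groups together, which shares its estimate of spread with the neutrophil libraries, called 16 higher and 0 lower, where 2.99% of all genes were called higher and 0.655% lower.

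**Figure D1:**
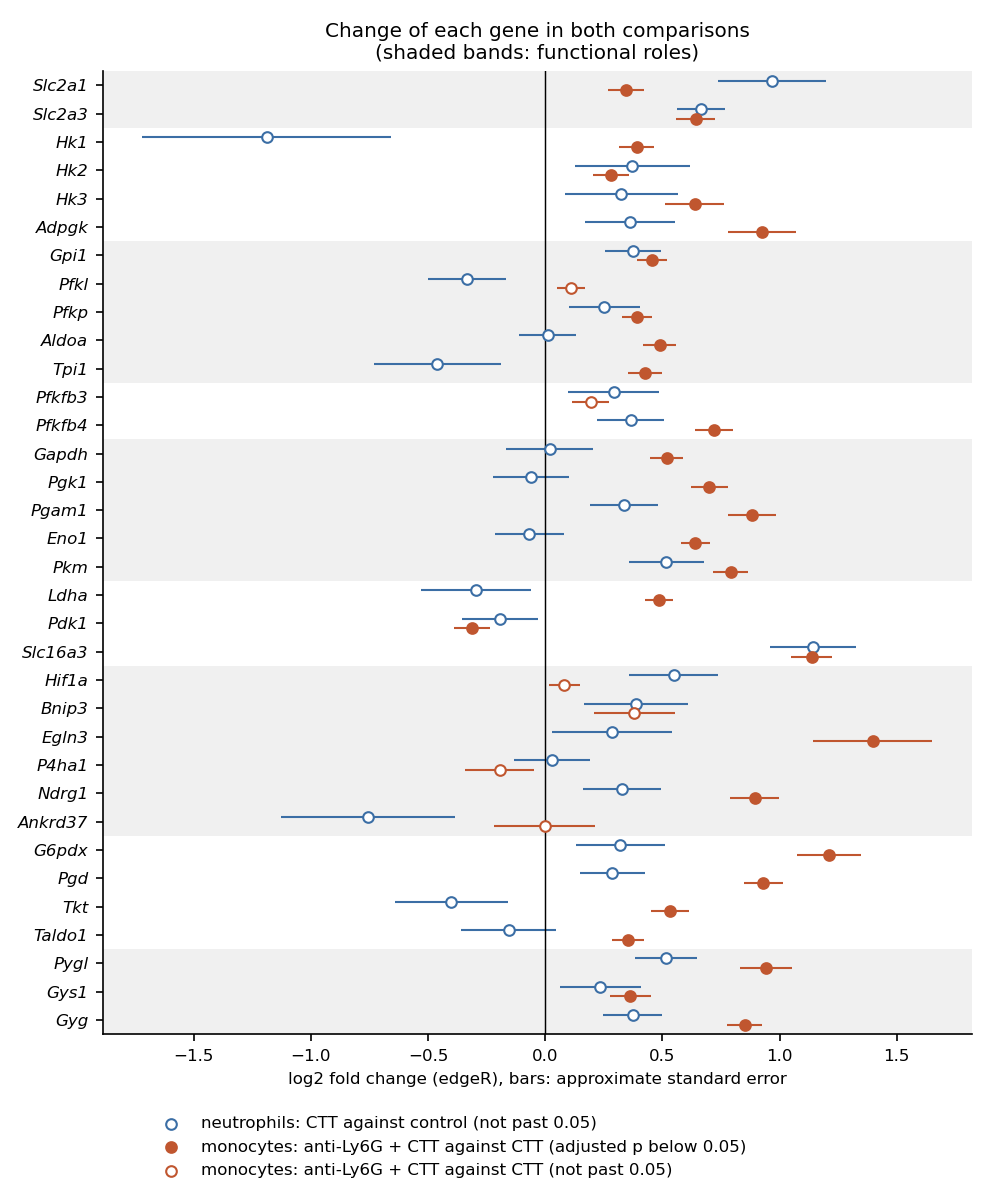
Log2 fold change (x axis) of each of the 34 genes (y axis, grouped by role in shaded bands) in neutrophils after CTT (blue) and in monocytes with anti-Ly6G on top of CTT (orange). Points are edgeR estimates, bars their approximate standard errors, and filled points passed the adjusted threshold of 0.05: 28 of 34 in monocytes and 0 of 34 in neutrophils.

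Both glucose transporters rose in monocytes. Slc2a3, the high-affinity transporter GLUT3, stood at 128, 141 and 131 CPM with CTT alone and 204, 232 and 188 CPM with anti-Ly6G (log2 fold change 0.64, SE 0.08, edgeR adjusted p = 0.00183). Slc2a1, the widely expressed transporter GLUT1, stood at 44.0, 50.3 and 49.9 CPM and 57.2, 63.5 and 62.5 CPM in the same order (log2 fold change 0.35, SE 0.08, edgeR adjusted p = 0.0183). The 2 groups did not overlap for either gene. The smaller change, that of Slc2a1, missed the threshold when CTT replicate 3, anti-Ly6G replicate 2 or anti-Ly6G replicate 3 was left out (edgeR adjusted p = 0.0508, 0.0692 and 0.0656).

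All 4 enzymes that phosphorylate glucose rose. Adpgk, a glucokinase that uses ADP in place of ATP, stood at 139.8, 99.1 and 96.1 CPM with CTT alone and 241, 204 and 191 CPM with anti-Ly6G (log2 fold change 0.92, SE 0.15, edgeR adjusted p = 0.00411). Hk3, the hexokinase typical of myeloid cells, stood at 165, 120.1 and 126 CPM and 238, 209 and 193 CPM (log2 fold change 0.64, SE 0.13, edgeR adjusted p = 0.0112). CTT replicate 1 was the highest CTT library for both, and the anti-Ly6G libraries lay above it. Hk1, the ubiquitous hexokinase that sits on mitochondria, stood at 66.8, 68.6 and 75.1 CPM and 98.5, 91.5 and 85.7 CPM (log2 fold change 0.39, SE 0.07, edgeR adjusted p = 0.00949). Hk2, the inducible hexokinase, had the smallest increase of the 27, at 71.9, 68.6 and 65.7 CPM and 90.9, 76.2 and 83.6 CPM (log2 fold change 0.28, SE 0.08, edgeR adjusted p = 0.0394). The call on Hk2 was lost when any of 4 libraries was left out (CTT replicates 2 and 3, anti-Ly6G replicates 1 and 3; adjusted p = 0.1005 to 0.158), and that on Hk3 without CTT replicate 3 (0.0608) or anti-Ly6G replicate 1 (0.0508).

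In the upper part of glycolysis 4 of 5 genes rose. Aldoa, the aldolase that splits fructose bisphosphate, changed by 0.49 (SE 0.07) on the log2 scale (edgeR adjusted p = 0.00259). The isomerases Gpi1 (glucose phosphate) and Tpi1 (triose phosphate) changed by 0.46 (SE 0.06) and 0.43 (SE 0.07), with edgeR adjusted p-values of 0.00257 and 0.00571. The committed step is catalysed by phosphofructokinase, whose isoforms differed in call. Pfkp, the platelet form, stood at 77.3, 85.5 and 77.5 CPM with CTT alone and 109, 102 and 105 CPM with anti-Ly6G (log2 fold change 0.39, SE 0.06, edgeR adjusted p = 0.00496). Pfkl, the liver form, stood at 62.6, 58.9 and 62.3 CPM and 68.8, 64.5 and 64.9 CPM, which did not pass the test (log2 fold change 0.11, SE 0.06, edgeR adjusted p = 0.26), although its 2 groups did not overlap either. The difference between the 2 isoforms was not tested.

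The 2 enzymes that make and remove the sugar bisphosphate that switches phosphofructokinase on also differed in call. Pfkfb4 stood at 65.5, 67.9 and 69.6 CPM with CTT alone and 111, 124 and 99.8 CPM with anti-Ly6G (log2 fold change 0.72, SE 0.08, edgeR adjusted p = 0.000965). Pfkfb3, the form with the strongest kinase activity, stood at 84.9, 95.0 and 101 CPM and 107, 100.1 and 113 CPM and did not pass (log2 fold change 0.19, SE 0.08, edgeR adjusted p = 0.133). The libraries of the 2 groups overlapped for Pfkfb3 and not for Pfkfb4, and the difference between the 2 genes was not tested.

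All 5 genes of the lower, ATP-yielding part of glycolysis rose, with a median log2 fold change of 0.70. Pkm, the pyruvate kinase that ends the pathway, stood at 681, 628 and 645 CPM with CTT alone and 1241, 1076 and 1065 CPM with anti-Ly6G (log2 fold change 0.79, SE 0.07, edgeR adjusted p = 0.000411). Pgam1, the mutase of phosphoglycerate, stood at 77.3, 70.5 and 64.6 CPM and 149, 119 and 123 CPM (log2 fold change 0.88, SE 0.10, edgeR adjusted p = 0.000913). Pgk1, the kinase of the ATP-yielding step before it, stood at 162, 155 and 157 CPM and 287, 248 and 235 CPM (log2 fold change 0.70, SE 0.08, edgeR adjusted p = 0.000905). In all 3 genes anti-Ly6G replicate 1 was the highest library. Eno1, the enolase, changed by 0.64 (SE 0.06) on the log2 scale (edgeR adjusted p = 0.000481). Gapdh, often taken as a reference gene, stood at 58.9, 55.1 and 52.0 CPM and 83.9, 76.2 and 77.6 CPM (log2 fold change 0.52, SE 0.07, edgeR adjusted p = 0.00213). It therefore differed between these groups too.

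The 3 genes that decide the fate of pyruvate and lactate did not move together. Slc16a3, the lactate exporter MCT4, stood at 60.4, 59.8 and 67.3 CPM with CTT alone and 151, 139 and 123 CPM with anti-Ly6G (log2 fold change 1.14, SE 0.09, edgeR adjusted p = 0.000166). The lowest anti-Ly6G library lay well above the highest CTT library. Ldha, the lactate dehydrogenase subunit that favours lactate formation, stood at 299.8, 273 and 289 CPM and 418, 398 and 390.4 CPM (log2 fold change 0.48, SE 0.06, edgeR adjusted p = 0.00144). Pdk1, a kinase that switches off pyruvate dehydrogenase and so keeps pyruvate out of mitochondria, was the only gene of the 34 to fall, at 52.1, 54.8 and 51.0 CPM and 38.6, 42.5 and 46.0 CPM (log2 fold change −0.31, SE 0.08, edgeR adjusted p = 0.03). The call on Pdk1 held in the fits without CTT replicate 1 or anti-Ly6G replicate 3 and missed the threshold without any of the other 4 libraries (adjusted p = 0.0705 to 0.0973).

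Of the 6 hypoxia genes 2 rose and 4 did not pass. Egln3, a prolyl hydroxylase that marks HIF for destruction and is itself a HIF target, had the largest estimate of all 34 genes, at a low level: 2.87, 2.31 and 2.36 CPM with CTT alone and 6.86, 8.52 and 4.52 CPM with anti-Ly6G (log2 fold change 1.40, SE 0.25, edgeR adjusted p = 0.00785). The anti-Ly6G libraries differed among themselves more for Egln3 than for any other of these genes (30.3% coefficient of variation). Ndrg1, a hypoxia-induced gene of cell differentiation, stood at 39.1, 33.2 and 33.9 CPM and 75.6, 61.2 and 60.7 CPM (log2 fold change 0.89, SE 0.10, edgeR adjusted p = 0.00104). Hif1a, the oxygen-regulated subunit of HIF-1, which is controlled mainly at the protein level, stood at 129, 136 and 144 CPM and 138, 151 and 144 CPM (log2 fold change 0.08, SE 0.07, edgeR adjusted p = 0.434). Its groups overlapped. Bnip3, a mitophagy receptor, P4ha1, a collagen prolyl hydroxylase subunit, and Ankrd37, an ankyrin repeat gene, had log2 fold changes of 0.38, −0.19 and 0.00 (edgeR adjusted p = 0.172, 0.415 and 0.995). For P4ha1 and Ankrd37 leaving out 1 library turned the sign: P4ha1 was 0.01 without CTT replicate 1, and Ankrd37 was 0.03 without CTT replicate 2 and 0.21 without anti-Ly6G replicate 1.

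All 4 pentose phosphate genes rose, with the largest estimates for the 2 NADPH-making enzymes. G6pdx, the dehydrogenase that opens the pathway and controls its rate, stood at 175, 137 and 137 CPM with CTT alone and 416, 309 and 315 CPM with anti-Ly6G (log2 fold change 1.21, SE 0.14, edgeR adjusted p = 0.000857). Pgd, the dehydrogenase of the next NADPH-making step, stood at 243, 211 and 219.9 CPM and 459, 441 and 386 CPM (log2 fold change 0.93, SE 0.08, edgeR adjusted p = 0.000341). In both genes anti-Ly6G replicate 1 was the highest library and the groups did not overlap. Tkt and Taldo1, the transketolase and transaldolase that return sugars to glycolysis, had log2 estimates of 0.53 (SE 0.08) and 0.35 (SE 0.07), both called (edgeR adjusted p = 0.00353 and 0.00993). The call on Taldo1 was lost without CTT replicate 3 (adjusted p = 0.0535).

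All 3 glycogen genes rose. Pygl, the phosphorylase that releases glucose from glycogen, stood at 227, 173 and 186 CPM with CTT alone and 399, 394 and 333 CPM with anti-Ly6G (log2 fold change 0.94, SE 0.11, edgeR adjusted p = 0.00107). Gyg, glycogenin, the protein primer on which glycogen is started, stood at 64.4, 57.4 and 61.5 CPM and 119.7, 105 and 106 CPM (log2 fold change 0.85, SE 0.07, edgeR adjusted p = 0.000296). Gys1, the synthase that extends the chain, changed less, at 30.2, 28.6 and 28.0 CPM and 41.4, 36.1 and 34.2 CPM (log2 fold change 0.36, SE 0.09, edgeR adjusted p = 0.0267). Its call was lost without CTT replicate 2 or 3 or anti-Ly6G replicate 1 or 2 (adjusted p = 0.0636 to 0.108). Genes for building and for breaking glycogen thus rose in the same libraries.

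**Figure D2:**
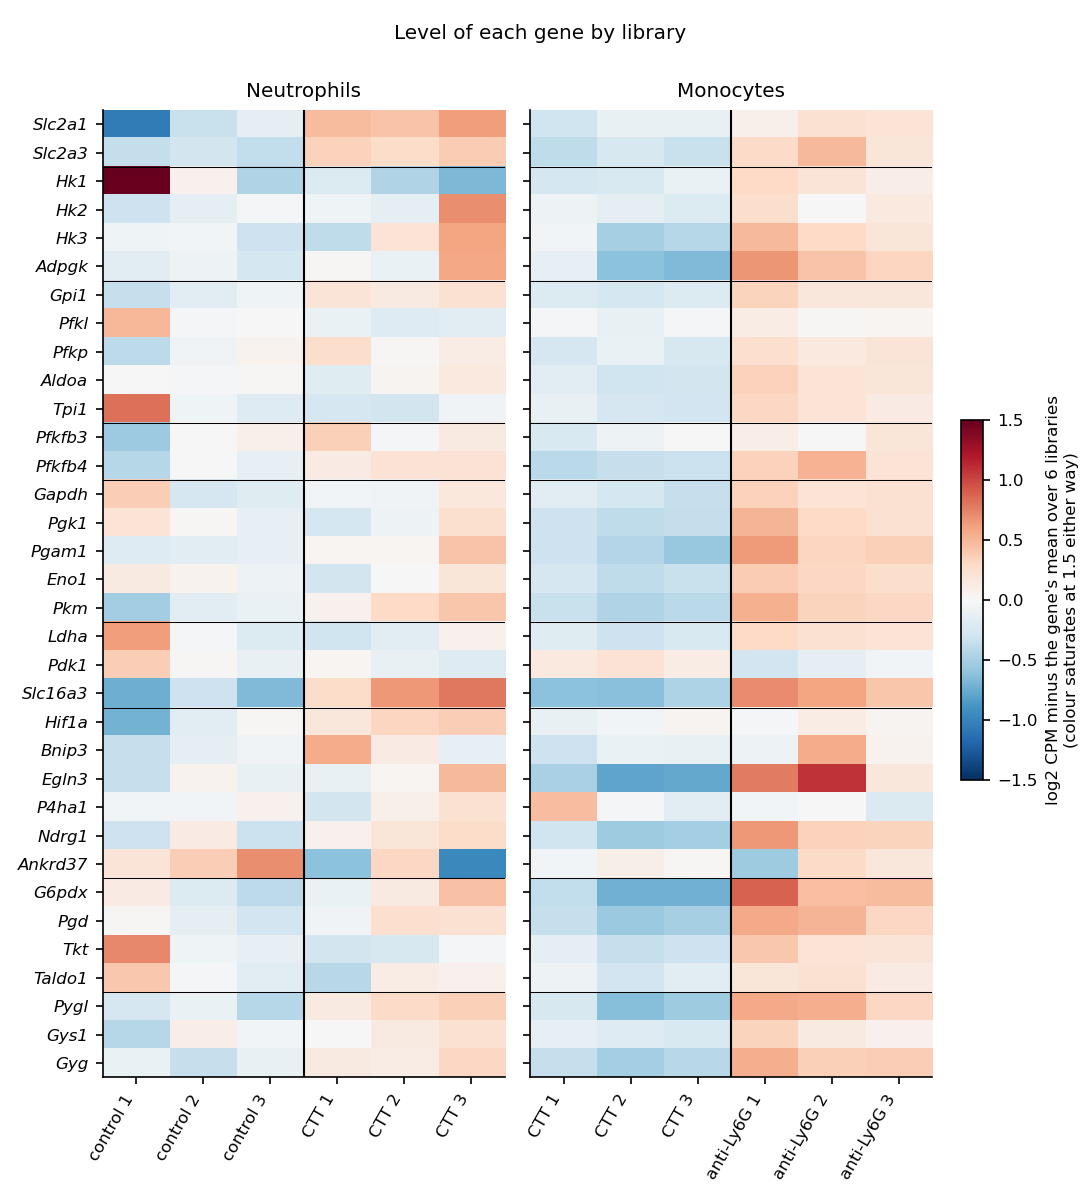
Level of each gene (rows, grouped by role) in each library (columns), as log2 CPM minus the gene's mean over the 6 libraries of that cell type; red is above and blue below that mean, and the colour saturates at 1.5. In monocytes the 3 anti-Ly6G columns lie above the mean in the 27 genes that rose and below it in Pdk1. Some of these cells are near white, among them Hk2 in anti-Ly6G replicate 2 and Pdk1 in anti-Ly6G replicate 3. In neutrophils the darkest red cell is Hk1 in control replicate 1.

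In neutrophils 12 h after CTT, 0 of the 34 genes passed the test in either direction in edgeR, and 9 were higher and 0 lower at an unadjusted p below 0.05, where 8.28% and 5.74% of all genes were. In this comparison 0.567% of all 13058 genes tested rose and 0% fell. The median log2 fold change of the 34 genes was 0.29, beside −0.02 for all genes, with 24 estimates above 0 and 10 below, from −1.19 (Hk1) to 1.14 (Slc16a3). In 10 genes every CTT library lay above every control library and in 1 (Pfkl) below, against 13.6% and 11% of all genes. Other tools made other counts: DESeq2 called 4 of the 34 higher (3.49% of all genes it tested), limma-voom 0 (0.528%), and limma-voom with sample quality weights 9 (5.46%). DESeq2's 4 were Slc2a1, Slc2a3, Slc16a3 and Pygl, and all 4 were also among the 9. The edgeR fit of all 4 groups together called 6 (3.9% of all genes).

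Without control replicate 1, edgeR called 3 of the 34 higher and 0 lower, where 1.93% of all 13295 genes tested rose and 0.233% fell. These 3 were Slc16a3 (log2 fold change 1.07, SE 0.17, adjusted p = 0.0227), Slc2a1 (0.75, SE 0.10, adjusted p = 0.0130) and Slc2a3 (0.66, SE 0.08, adjusted p = 0.0111), that is, both glucose transporters and the lactate exporter. The median of the 34 genes was then 0.25, with 27 estimates above 0. Without CTT replicate 3 the median was 0.15, with 21 estimates above 0 and 13 below. Without control replicate 1, 13 genes lay above and 2 below both remaining controls in every CTT library, against 17.9% and 17.6% of all genes. Leaving out any other single neutrophil library gave 0 calls among the 34, and 0 among all genes.

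With all 6 libraries, Slc16a3 stood at 39.3, 52.6 and 41.1 CPM in the controls and 78.7, 102 and 113 CPM after CTT (log2 fold change 1.14, SE 0.18, edgeR adjusted p = 0.0635). Slc2a3 stood at 107, 114 and 107 CPM and 175, 166 and 179.6 CPM (log2 fold change 0.67, SE 0.10, edgeR adjusted p = 0.0544). Slc2a1 stood at 34.6, 57.1 and 65.0 CPM and 99.7, 96.7 and 111 CPM (log2 fold change 0.97, SE 0.23, edgeR adjusted p = 0.166). In all 3 the CTT libraries lay above all controls, and for Slc2a1 control replicate 1 was the lowest of the 6 libraries. These 3 estimates can be set beside those in monocytes, which were 1.14, 0.64 and 0.35. The 2 comparisons are of different treatments, cells and times, and their difference was not tested.

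Among the phosphorylating enzymes Hk1 had the widest spread of the 34, at 565, 180.0 and 125 CPM in the controls and 148, 125 and 108 CPM after CTT (log2 fold change −1.19, SE 0.53, edgeR adjusted p = 0.365). Control replicate 1 held 3.70 times the mean of the other 2 controls, and without it the log2 fold change of Hk1 was −0.26. Hk2 stood at 30.4, 34.3 and 37.0 CPM and 36.2, 34.1 and 61.2 CPM (log2 fold change 0.37, SE 0.24, edgeR adjusted p = 0.469). Hk3 stood at 57.5, 58.7 and 48.6 CPM and 46.4, 69.3 and 90.6 CPM (log2 fold change 0.32, SE 0.24, edgeR adjusted p = 0.519). For both, CTT replicate 3 was the highest library and the groups overlapped. The same library had the highest neutrophil marker sum (12964 CPM). That sum was 7856 and 8205 CPM in the other CTT libraries and 4193 to 6158 CPM in controls. Its monocyte (5714 CPM) and dendritic cell (593 CPM) marker sums were also the highest of the neutrophil libraries. Its erythroid sum was the lowest (453 CPM). Adpgk had an estimate of 0.36 (SE 0.19) on the log2 scale (edgeR adjusted p = 0.404).

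In glycolysis proper the estimates went both ways. Pkm stood at 549, 704 and 735 CPM in the controls and 823, 967 and 1055 CPM after CTT (log2 fold change 0.52, SE 0.16, edgeR adjusted p = 0.286). Log2 estimates for Gpi1, Pfkfb4 and Pgam1 were 0.37, 0.37 and 0.34, with edgeR adjusted p-values of 0.301, 0.347 and 0.36. For these 4 genes every CTT library lay above every control. Pfkl stood at 82.9, 57.8 and 59.1 CPM and 55.0, 51.3 and 52.3 CPM (log2 fold change −0.33, SE 0.17, edgeR adjusted p = 0.391). It was the only gene of the 34 whose CTT libraries all lay below the controls; its highest library was control replicate 1, without which the estimate was −0.14. Pfkp and Pfkfb3 stood at 0.25 and 0.29 on the log2 scale (adjusted p = 0.441 and 0.473), and at 0.14 and 0.13 without control replicate 1. Tpi1 and Ldha had estimates of −0.46 and −0.30 (adjusted p = 0.435 and 0.544), but −0.06 and 0.00 without control replicate 1. Aldoa, Gapdh, Pgk1 and Eno1 lay between −0.07 and 0.02, and the sign of each turned under at least 1 alternative; Gapdh was 0.25 without control replicate 1. Pdk1, which fell in monocytes, had an estimate of −0.19 (SE 0.16) here (adjusted p = 0.569) and −0.03 without control replicate 1.

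Hif1a stood at 83.3, 120.4 and 138 CPM in the controls and 153, 169.6 and 176 CPM after CTT (log2 fold change 0.55, SE 0.19, edgeR adjusted p = 0.325); the groups did not overlap, and control replicate 1 was again the lowest. Without it the estimate for Hif1a was 0.37. Of the other hypoxia genes Bnip3, Ndrg1, Egln3 and P4ha1 had log2 fold changes of 0.39, 0.33, 0.29 and 0.03, and Ankrd37 of −0.76, with adjusted p-values of 0.383 or more. Pygl stood at 122, 136 and 108 CPM and 159, 178 and 186 CPM (log2 fold change 0.52, SE 0.13, edgeR adjusted p = 0.192). Gyg stood at 66.2, 55.9 and 65.8 CPM and 77.9, 77.0 and 88.3 CPM (log2 fold change 0.37, SE 0.13, edgeR adjusted p = 0.318), both with every CTT library above every control. Gys1 had an estimate of 0.23 (adjusted p = 0.514), and of 0.10 without control replicate 1. In the pentose phosphate pathway G6pdx and Pgd had estimates of 0.32 and 0.29, which were 0.48 and 0.37 without control replicate 1 (adjusted p = 0.189 and 0.160). Tkt and Taldo1 had estimates of −0.40 and −0.16, which were −0.07 and 0.03 without it.

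For the genes not yet given without control replicate 1, log2 estimates were 0.31 (Hk2), 0.36 (Hk3), 0.37 (Adpgk), 0.31 (Gpi1), 0.26 (Pfkfb4), 0.33 (Pgam1), 0.40 (Pkm), 0.02 (Aldoa), 0.04 (Pgk1), −0.01 (Eno1), 0.32 (Bnip3), 0.19 (Egln3), 0.02 (P4ha1), 0.26 (Ndrg1), −0.86 (Ankrd37), 0.52 (Pygl) and 0.42 (Gyg), none called. Control replicate 1 lay above the other 5 libraries in 8 of the 34 genes (Hk1, Pfkl, Tpi1, Gapdh, Ldha, Pdk1, Tkt and Taldo1), below them in 13 and within their range in 13. In 4 of the 8 it was at least 1.5 times the mean of the other controls: Hk1, Tpi1 at 1.94 times, Tkt at 1.76 times and Ldha at 1.67 times. The shares of all genes in which control replicate 1 lay above or below the other 5 libraries were not counted. The erythroid and cell cycle markers were highest in the same library. Its B cell (3140 CPM), neutrophil (4193 CPM) and monocyte (2155 CPM) marker sums were the lowest of the neutrophil libraries. The B cell sum was 6460 to 7903 CPM in the others. The part of these marker differences in the levels was not tested. After CTT the neutrophil marker sum was higher in every library than in any control, with 2 of the 14 markers called, and so was the monocyte marker sum (3322 to 5714 CPM against 2155 to 2683 CPM), with 9 of 10 monocyte markers above 0 in their estimates and 1, Vcan, called (log2 fold change 1.78, adjusted p = 0.0467 in edgeR). The part of these shifts in the 24 positive estimates was not tested. Over both comparisons 23 of the 34 genes had a positive estimate in each, with 24 positive in neutrophils and 31 in monocytes. Of all tested genes 47.9% were positive in neutrophils and 49.2% in monocytes. The share of all genes positive in both was not counted, and a link between the 2 comparisons was not tested.

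**Figure D3:**
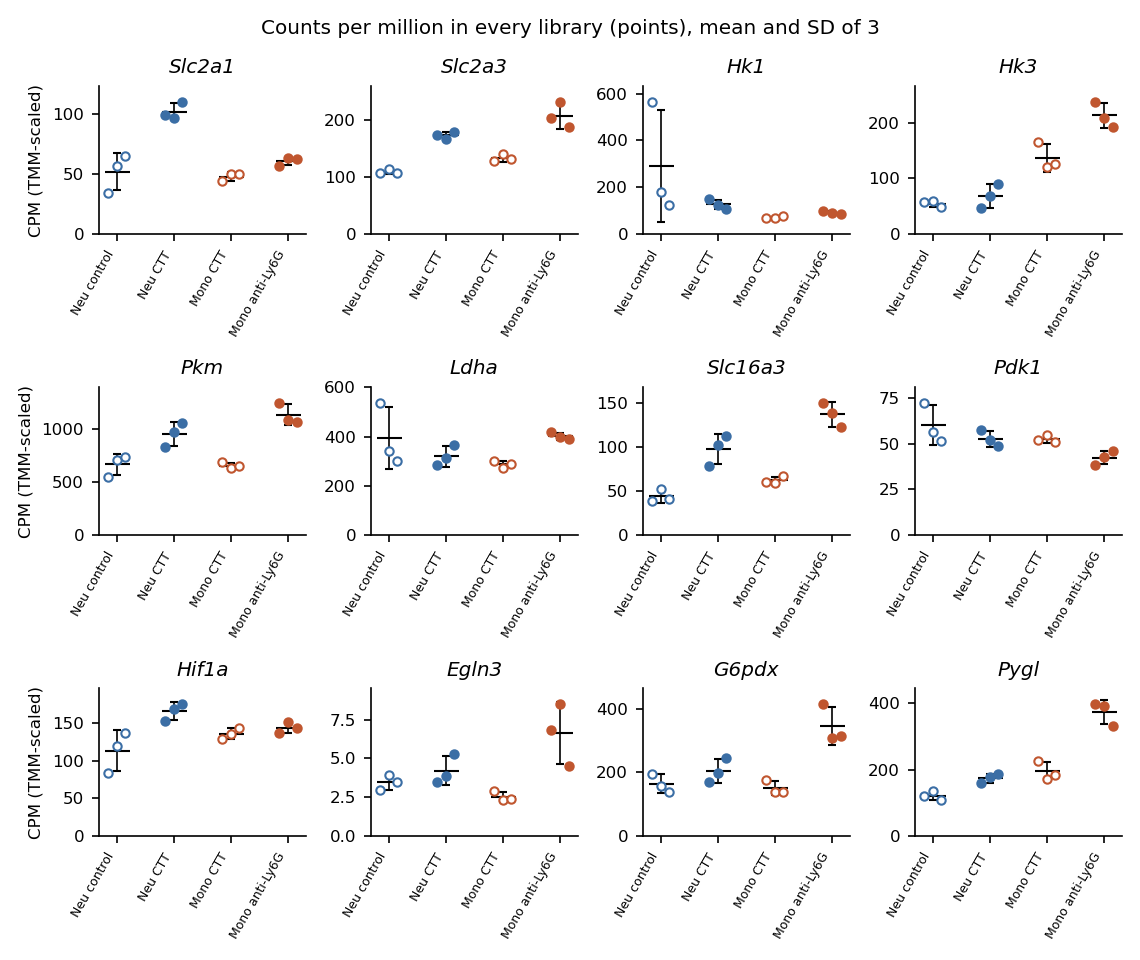
TMM-scaled CPM (y axis from 0) of 12 of the genes in all 12 libraries, by group, with the mean and SD of 3 as a bar; blue is neutrophils, orange monocytes, open circles the reference group. Slc16a3 runs from 39.3 to 52.6 CPM in control neutrophils and from 78.7 to 113 CPM after CTT, and the single high Hk1 point of 565 CPM is control replicate 1.

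Per length, the highest mean levels of the 34 genes in all 4 groups were those of Taldo1, Eno1, Aldoa and Gpi1. Tkt came next and overlapped with Aldoa in control neutrophils and with Gpi1 in anti-Ly6G monocytes (189 ± 14.4 FPKM). In CTT monocytes Taldo1 stood at 336 ± 20.3 FPKM, Eno1 at 195 ± 6.94, Aldoa at 175 ± 7.51 and Gpi1 at 157 ± 2.83 (mean ± SD, n = 3), and no neighbours among these 4 overlapped. With anti-Ly6G they stood at 421 ± 13.5, 297 ± 10.5, 241 ± 13.3 and 210 ± 12.5 FPKM, in the same order. In control neutrophils the leading 5 could not be put in order, since Taldo1 (264 ± 52.0 FPKM), Eno1 (214 ± 14.2), Gpi1 (198 ± 21.4), Aldoa (193 ± 3.04) and Tkt (190.5 ± 64.1) overlapped from neighbour to neighbour. In neutrophils after CTT the leading 4 (Gpi1, Taldo1, Eno1 and Aldoa) overlapped in the same way. Egln3 and Ankrd37 were the lowest in every group, at 0.826 ± 0.0911 and 3.08 ± 0.175 FPKM in CTT monocytes. The neutrophil and monocyte tables were made separately, and levels were not tested between them.

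**Figure D4:**
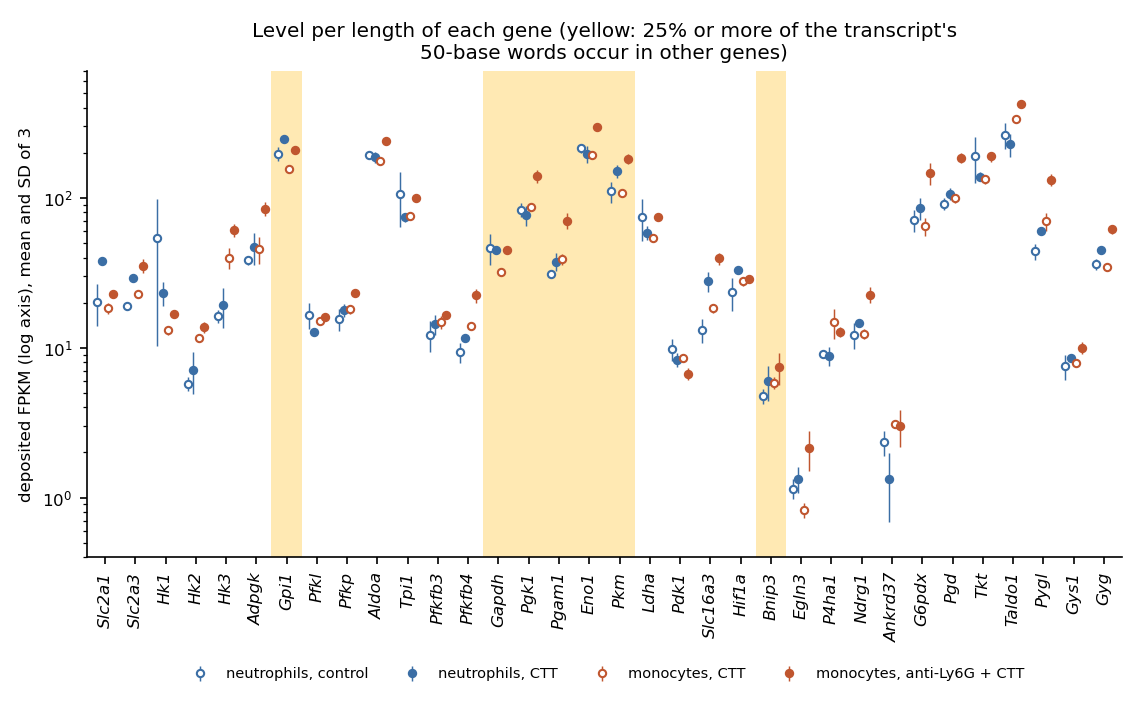
Deposited FPKM (log axis, mean and SD of 3 libraries) of each gene in the 4 groups; yellow marks the 7 genes with 25% or more of their 50-base words in other genes. Taldo1 is highest at 421 FPKM in anti-Ly6G monocytes, and Egln3 lowest at 0.826 FPKM in CTT monocytes.

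Where several isozymes do the same step, each one's share of the family's summed FPKM was taken as a description, with no test. Of the 3 hexokinases, Hk3 held 25.2 ± 10.5% in control neutrophils, 38.6 ± 9.14% after CTT, 61.5% in CTT monocytes and 66.5% with anti-Ly6G, while Hk1 held 65.3 ± 15.5% in control neutrophils and 20.5% in CTT monocytes. The share of Hk3 in control replicate 1 was 13.1%, against 30.3% and 32.3% in the other controls. Of the 3 monocarboxylate transporters, Slc16a3 held 68.3% in CTT monocytes (64.7, 68.1 and 72.1%) and 83.4% with anti-Ly6G (83.7, 83.7 and 82.7%). Its relative Slc16a1 (MCT1) was not called, with a log2 fold change of 0.07, adjusted p = 0.705, and Slc16a7 (MCT2) fell. In neutrophils the share of Slc16a3 was 22.0, 61.1 and 68.2% in the controls and 76.4, 82.4 and 82.4% after CTT. Pygl held 67.6% of the glycogen phosphorylases in CTT monocytes and 82.1% with anti-Ly6G, and Pfkfb4 41.3% and 51.9% of its family. Ldha made up 93.7 to 96.8% of the 2 lactate dehydrogenase genes in every library.

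**Figure D5:**
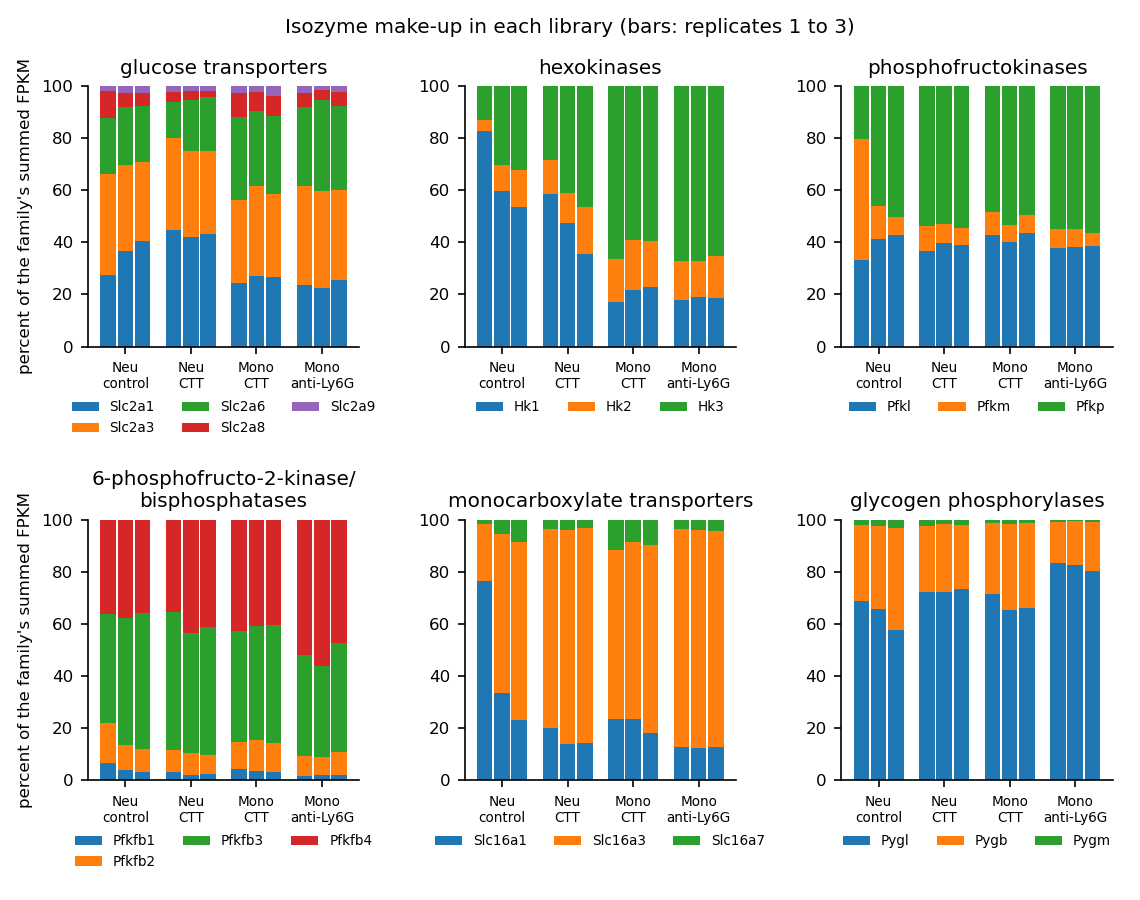
Share of each isozyme in the summed FPKM of its family (y axis, percent) in each of the 12 libraries (bars, 3 a group) for 6 families. Slc16a3 holds the largest share of the monocarboxylate transporters in every library except control neutrophil replicate 1, where it holds 22.0%, and Hk3 leads the hexokinases in all 6 monocyte libraries.

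A list of 108 other genes of the same pathways was counted in the same fits. Of the 96 tested in monocytes, 12 rose and 8 fell, beside 10.2% and 5.12% of all genes, with a median log2 fold change of 0.01. Adjusted p-values below are from edgeR, each after its log2 fold change. In glycolysis and pyruvate use 2 of 33 rose, Slc2a6 (the glucose transporter GLUT6, 0.60, adjusted p = 0.00643) and Ldhb (the other lactate dehydrogenase subunit, 0.77, adjusted p = 0.0251). In the same list 3 fell: Slc16a7 (−0.49, adjusted p = 0.0393), Slc37a2 (a sugar phosphate exchanger, −0.50, adjusted p = 0.0405) and Bpgm (bisphosphoglycerate mutase, −0.43, adjusted p = 0.0368). Pfkfb2, a further bisphosphate enzyme, was not called (−0.17, adjusted p = 0.291). Of 22 other glycogen genes 4 rose and 2 fell. Among those that rose were Ppp1r3d and Ppp1r3b, which bring a phosphatase to glycogen (0.90, adjusted p = 0.00228, against 0.84, adjusted p = 0.00295), and Pgm2, a phosphoglucomutase (0.53, adjusted p = 0.0128). Those that fell were Gaa, which digests glycogen in lysosomes (−0.33, adjusted p = 0.0257), and Phka1, a subunit of phosphorylase kinase (−0.32, adjusted p = 0.0451), while the branching enzyme Gbe1 was not called (0.16, adjusted p = 0.359). Of 10 other pentose phosphate genes 2 rose, Rpe (0.37, adjusted p = 0.00715) and H6pd (0.37, adjusted p = 0.0323), an epimerase and a dehydrogenase of the endoplasmic reticulum.

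Of 31 other hypoxia genes 4 rose and 3 fell in monocytes, beside 10.2% and 5.12% of all genes. Those that rose were Mxi1, a repressor that opposes Myc (0.70, adjusted p = 0.00147), Ero1a, an oxidase of protein folding (0.45, adjusted p = 0.00418), Egln1, the main HIF prolyl hydroxylase (0.37, adjusted p = 0.0212), and Narf (0.26, adjusted p = 0.0373). Those that fell were Bhlhe40, a transcriptional repressor (−0.41, adjusted p = 0.00285), Hilpda, which blocks fat breakdown in lipid droplets (−0.66, adjusted p = 0.0173), and Kdm3a, a histone demethylase (−0.25, adjusted p = 0.0199). Vegfa, the vascular growth factor, and Ddit4, an inhibitor of mTORC1, were not called (0.55, adjusted p = 0.115, against 0.05, adjusted p = 0.796). In neutrophils 2 of 97 other genes rose and 0 fell, beside 0.567% and 0% of all genes, with 9 higher and 5 lower at an unadjusted p below 0.05 and a median of 0.02; the unadjusted shares lie near the 8.28% and 5.74% of all genes. Vegfa stood at 11.7, 11.2 and 9.60 CPM in the controls and 30.7, 32.6 and 55.7 CPM after CTT (log2 fold change 1.87, SE 0.26, edgeR adjusted p = 0.0406). Ppp1r3b stood at 3.94, 5.41 and 4.28 CPM and 13.1, 12.8 and 12.2 CPM (log2 fold change 1.48, SE 0.19, edgeR adjusted p = 0.0315). For both genes the CTT libraries lay above the controls. Each fit that dropped a library after CTT, or control replicate 2 or 3, called 0 of these other genes, and the fit that dropped control replicate 1 called 4. Pfkfb2, Gbe1, Ddit4 and Egln1 had neutrophil estimates of −0.21, 0.57, 0.09 and −0.07, none called.

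Several of these genes share sequence with processed pseudogenes, which bears on how reads could be assigned. Words of 50 bases were taken from each gene's longest protein coding transcript and sought, on both strands, in all transcripts of other genes. In the GENCODE M21 transcripts 82.5% of the 50-base words of Gapdh also occur in other genes (222 genes, 215 of them pseudogenes), 72.2% of those of Eno1, 68.0% of Pgk1, 62.5% of Bnip3, 41.5% of Pgam1, 34.4% of Pkm and 25.3% of Gpi1. The level of these 7 is uncertain, and Gapdh stood at only 32.2 to 46.4 FPKM in the 4 groups. Of these 7, 6 rose in monocytes. Of the 12 genes whose longest transcript shares no such word, 10 rose (Slc2a3, Hk2, Hk3, Adpgk, Pfkfb4, Slc16a3, Egln3, Pgd, Tkt and Gyg). Pdk1 fell and P4ha1 did not pass, and the median of the 12 was 0.68. On the same strand, exons of Gm49759 overlap Pkm by 454 bases and those of Gm49321 overlap Hif1a by 148. Exons on the opposite strand overlap others, by up to 748 bases for Pfkp (Pitrm1), 342 for Bnip3 (Gm45507) and 329 for Ndrg1 (Gm17035). Next come 290 for Gys1 (Ruvbl2), 278 for G6pdx (Ikbkg), 259 for Ankrd37 (Lrp2bp) and 255 for Gpi1 (Gm26762). Hif1a (Gm15283) and Adpgk (Bbs4) overlap by 191 and 178. Exons of all transcripts were used here, so Adpgk has an overlap although its longest transcript shares no word. The strand setting of the counting was not given in the sources used here, so reads of such pairs cannot be told apart.

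Many of these genes are known HIF targets, so their promoters were searched for the hypoxia response core, ACGTG or GCGTG, on both strands. RefSeq promoter windows of 250 bases before to 50 bases after a gene's start (GRCm38.p6) were given for 32 of the 34 genes. At least 1 core lay in a window of 29 of the 32 (90.6%), against 46.7% of all 27025 genes with a window and 65.4% of the 10613 with a window among those tested in monocytes. The stricter core ACGTG alone was in 21 of 32 (65.6%), against 21.8% and 28.5%. GCGTG alone was also in 21 of 32, against 35.15% and 53.86%. The palindrome CACGTG, which holds ACGTG on both strands, was in 5 of 32 (15.6%), against 8.09% and 11.2%. The list includes genes long known as HIF targets, and a match of letters is no evidence of binding. Both cores hold the letters CG, and the promoters compared were not matched for base composition. The part of HIF in the changes of these genes was not tested.

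The stretches below, each upstream of a RefSeq start and written from 5′ to 3′ on the gene's own strand, show cores from 6 genes that rose in monocytes (Slc16a3, Pgk1, Ldha, Egln3, G6pdx and Slc2a1), from the gene that fell (Pdk1) and from a gene that did not pass (Bnip3). Capitals mark ACGTG or GCGTG, or their complements CACGT or CACGC, and overlapping matches are merged. They lie in GRCm38.p6 at chr11:120949020-120949066, plus strand (Slc16a3), chrX:106186930-106186993, plus strand (Pgk1), chr7:46845639-46845794, plus strand (Ldha), chr12:54204079-54204123, minus strand (Egln3), chrX:74428899-74428943, minus strand (G6pdx), chr4:119108664-119108733, plus strand (Slc2a1), chr2:71873126-71873170, plus strand (Pdk1) and chr7:138909517-138909643, minus strand (Bnip3).
Slc16a3: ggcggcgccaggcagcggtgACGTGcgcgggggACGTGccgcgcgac
Pgk1: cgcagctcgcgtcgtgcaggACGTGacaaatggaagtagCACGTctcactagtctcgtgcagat
Ldha: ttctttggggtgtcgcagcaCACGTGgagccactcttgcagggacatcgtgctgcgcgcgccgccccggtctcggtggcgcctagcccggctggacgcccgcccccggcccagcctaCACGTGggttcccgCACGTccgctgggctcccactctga
Egln3: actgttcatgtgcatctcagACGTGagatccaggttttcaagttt
G6pdx: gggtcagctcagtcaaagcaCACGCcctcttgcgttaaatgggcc
Slc2a1: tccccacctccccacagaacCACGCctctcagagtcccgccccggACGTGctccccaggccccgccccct
Pdk1: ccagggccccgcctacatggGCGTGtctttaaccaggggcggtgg
Bnip3: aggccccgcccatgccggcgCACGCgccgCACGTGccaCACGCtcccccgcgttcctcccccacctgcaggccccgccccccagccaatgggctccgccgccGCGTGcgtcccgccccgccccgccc

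Counting CACGTG as a core on each strand, Ldha and Bnip3 each held 5 cores in the stretch shown, and their monocyte log2 fold changes were 0.48 (called) and 0.38 (not called). Slc16a3, Pgk1 and Slc2a1 held 2 each, at 1.14, 0.70 and 0.35. Egln3, with the largest estimate (1.40), G6pdx (1.21) and Pdk1, which fell (−0.31), held 1 each. Cores that reach past the start are left out of the stretches. In the whole windows shown here in part, G6pdx and Pdk1 held 2 cores each and Ldha 7, and a second window of Ldha held 2. These genes are examples, and a link between the number of cores and the change was not tested.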

How the data were processed

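Total RNA of 12 libraries was sequenced after TRIzol extraction and VAHTS Universal V6 library preparation, per the labels' protocols. Per cell type the authors deposited a table of unnormalised counts and one of FPKM (per gene length and library size). The submitters' processing notes name HISAT2, HTSeq and mm10; versions, annotation and strand setting were not given in the sources used here. Groups and replicate numbers came from the sample titles.

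Each cell type was fitted on its own in R 4.3.3 with edgeR 4.0.16 (filterByExpr, TMM, two-sided quasi-likelihood F test, Benjamini-Hochberg over all tested genes, threshold 0.05), a step tested on simulated data. An SE is the absolute log2 fold change over the square root of F. FPKM as deposited gave levels per length and shares. With at least 30942849 counts a library, counting error is small beside library spread except at a few CPM. The 34 genes and the lists were chosen with earlier results of these data known. All 34 are given; described most fully are at most 10 called genes a comparison by smallest p and 14 key enzymes and factors. Of the other pathway genes, at most 4 called a list and direction were named, plus Pfkfb2, Gbe1, Ddit4, Egln1, Vegfa and isozymes of the 34. A called gene of these lists is not reported here. Promoter windows came from RefSeq (GRCm38.p6, the assembly of mm10) and transcript words from GENCODE M21.

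Alternatives were DESeq2 1.42.0, limma 3.58.1 (voom, voom with sample quality weights, and trend on log2 FPKM with a pseudocount of 1 or 0.1, also for genes averaging 1 FPKM or more), RLE, upper quartile and library-total scaling, no filter, a filter of 1 CPM in 3 libraries, the replicate block, all 4 groups in 1 fit, and leaving out each library. Giving neutrophil counts without control replicate 1, monocyte counts without CTT replicate 1, and the shared words were chosen after seeing the data.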

Additional observations from a re-analysis of the deposited data

How the results depend on the processing

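In monocytes 27 genes rose and 1 fell in the fit reported. The fit of all 4 groups together gave 16 higher and 0 lower, FPKM with a pseudocount of 1 or 0.1 gave 0 lower, and leaving out 1 library gave 22 to 27 higher and 0 to 1 lower, with medians of 0.47 to 0.55. Of the 28 called genes 16 passed in all 19 alternatives. Other pathway genes (12 higher, 8 lower) numbered 7 higher and 5 lower on FPKM with a pseudocount of 1, 5 lower with 0.1, 3 higher and 0 lower in the 4-group fit, and 7 to 14 higher and 2 to 9 lower without 1 library (7 higher without CTT replicate 3 or anti-Ly6G replicate 2, 5 lower without CTT replicate 2, 2 lower without CTT replicate 3 or any anti-Ly6G replicate). In neutrophils the 34 genes (0 higher) numbered 1 higher with the 1 CPM filter, 4 with DESeq2, 9 with weighted voom, 6 in the 4-group fit and 0 to 3 without 1 library, with medians of 0.15 (without CTT replicate 3) to 0.34. Other pathway genes there (2 higher, 0 lower) numbered 5 higher with DESeq2, 7 higher and 1 lower with weighted voom, 7 in the 4-group fit, 0 on FPKM with a pseudocount of 1 or 0.1, and 0 to 4 without 1 library.

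Among all genes, neutrophil calls (74 higher, 0 lower) were 455 and 107 with DESeq2, 713 and 163 with weighted voom, 535 and 102 in the 4-group fit, 8 and 0, 26 and 1, and 49 and 1 in the 3 FPKM fits (pseudocount 1, 0.1, and 1 with the minimum mean), and 257 and 31 without control replicate 1. They were 0 and 0 without any other library. Monocyte calls (1354 and 681) were 410 and 90 in the 4-group fit, 883 and 322 or 917 and 362 on FPKM with a pseudocount of 1 or 0.1, 1566 and 1204 with DESeq2, 1824 and 1160 with weighted voom, 1069 and 1030 with upper quartile scaling, and without 1 library 706 to 1687 higher and 177 to 1168 lower, the lowest without CTT replicate 3 (higher) and anti-Ly6G replicate 1 (lower).

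Signs turned only for estimates that were not called. In neutrophils Aldoa was −0.050 with library totals, −0.053, −0.054 and −0.053 in the 3 FPKM fits, and −0.063 to 0.10 without 1 library. Gapdh was −0.038 with library totals, −0.015 in each FPKM fit, and −0.096 to 0.25 without 1 library. P4ha1 was −0.033 with library totals, −0.038, −0.042 and −0.038 on FPKM, and −0.082 to 0.17 without 1 library. Taldo1 was 0.040 with weighted voom and −0.27 to 0.032 without 1 library. Without 1 library Pgk1 ran from −0.20 to 0.053, Ldha from −0.45 to 0.0033 and Eno1 from −0.18 to 0.051 in neutrophils, and P4ha1 from −0.32 to 0.014 and Ankrd37 from −0.16 to 0.21 in monocytes. The cause of these shifts was not tested.

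Deviations of same-numbered libraries correlated at 0.25, 0.00015 and 0.23 in neutrophils and 0.17, −0.056 and 0.22 in monocytes, so the numbers were not taken to pair libraries. With the replicate block the 34 genes numbered 0 higher in neutrophils and 27 higher and 1 lower in monocytes, other pathway genes 0 and 13 higher, and all-gene calls 4 and 1 in neutrophils and 1551 and 1043 in monocytes. Precision is least for Egln3 and Ankrd37, at a few CPM.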
